A study of Mus musculus with 22 samples.

Results

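The genes described here are 8 genes of glycogen metabolism in skeletal muscle, measured in 2 mouse strains and 2 kinds of muscle. They are Phkg1, Phka1 and Phkb, which encode subunits of phosphorylase kinase, and Pygm, Gys1, Gbe1, Gaa and Ugp2, which encode enzymes that break down or build glycogen. Every probe set annotated to 1 of these 8 gene symbols and no other was taken, which gave 9 of the 12488 probe sets on the array and 8 of 8251 genes. Gaa had 2 probe sets and each other gene had 1. Phkg1 was chosen by its measured values, for its very large difference between the strains, so that difference is described here and not tested.

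Leg muscle was compared with extraocular muscle, which moves the eyeball and is abbreviated EOM, in SJL and in Balb mice, on 22 Affymetrix arrays. The 8 groups were Balb leg, SJL leg, Balb EOM and SJL EOM, each at 10 months and at 12 months (given as 1 year in the labels), with 3 arrays per group, or 2 for Balb and for SJL EOM at 12 months. The labels name no treatment, sex or allele, and they do not say which leg muscles were taken, whether RNA was pooled or whether replicates were separate animals. The p-values therefore measure only the spread between these samples, which may be technical, and the number of arrays limits the precision. SJL mice are known to carry a mutation in the dysferlin gene, and its effect cannot be told apart here from that of any other difference between SJL and Balb.

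Glycogen is the glucose store of muscle fibres. Phosphorylase kinase joins a catalytic gamma subunit (Phkg1 in muscle), regulatory alpha and beta subunits (Phka1 in muscle, and Phkb), and a calmodulin that senses calcium. When a fibre is excited, the kinase phosphorylates and switches on muscle glycogen phosphorylase (Pygm), which releases glucose-1-phosphate from glycogen. In the other direction, UDP-glucose pyrophosphorylase (Ugp2) makes the sugar donor, glycogen synthase (Gys1) lengthens the chains and the branching enzyme (Gbe1) adds branch points. Acid alpha-glucosidase (Gaa) degrades glycogen in lysosomes.

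The sequences just upstream of the gene starts are shown for the genes whose differences the results turn on most, Phkg1 for strain and Phka1 for muscle, with Pygm, the enzyme the kinase acts on. Each is the 250 bases before the annotated start, from RefSeq on GRCm38.p6, written 5′ to 3′ on the gene's strand, with every E-box (CANNTG, the core letters bound by MyoD-family factors) in capitals. The reference is the C57BL/6J strain, which is neither strain of the study. The windows lie at chr5:129879089-129879338 on the minus strand for Phkg1, chrX:102644247-102644496 on the minus strand for Phka1 and chr19:6384158-6384407 on the plus strand for Pygm.
Phkg1: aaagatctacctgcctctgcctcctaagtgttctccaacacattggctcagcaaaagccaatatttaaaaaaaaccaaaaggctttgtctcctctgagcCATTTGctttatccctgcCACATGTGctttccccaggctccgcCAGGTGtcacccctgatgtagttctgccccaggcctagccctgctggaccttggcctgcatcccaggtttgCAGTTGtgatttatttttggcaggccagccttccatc
Phka1: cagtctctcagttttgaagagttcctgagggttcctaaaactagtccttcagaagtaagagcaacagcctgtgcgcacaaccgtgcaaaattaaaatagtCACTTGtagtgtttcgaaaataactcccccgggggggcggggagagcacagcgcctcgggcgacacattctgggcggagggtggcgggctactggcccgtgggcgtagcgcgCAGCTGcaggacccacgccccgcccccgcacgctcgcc
Pygm: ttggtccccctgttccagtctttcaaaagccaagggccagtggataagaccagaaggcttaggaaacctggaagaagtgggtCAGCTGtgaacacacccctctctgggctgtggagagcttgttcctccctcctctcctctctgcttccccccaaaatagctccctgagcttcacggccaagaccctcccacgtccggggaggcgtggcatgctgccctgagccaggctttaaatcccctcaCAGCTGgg
The Phkg1 window held 5 E-boxes, of which 2 overlap and share letters, the Phka1 window 2 and the Pygm window 2. An E-box was present in 8 of the 9 windows of the members (Ugp2 has 2 annotated starts), and in 66.2% of all 32851 windows of the same length, so its presence is common. The sequence TATAAA was in 0 of the 9 windows against 12.4% of all windows, and CATTCC (the MCAT element) was in 1 of 9, that of Gaa, against 12.6%. No match to the MEF2 or CArG motifs, which are in 2.9% and 1.5% of all windows, was found in the 9 windows. All motifs were sought on both strands, and a match or its absence says only which letters are in these windows.

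Array quality bears on every member. On the replicate 1 arrays at 10 months, 1 in each strain and muscle, the ratio of the 3 prime to the 5 prime probe sets of Actb lay between 5.05 and 53.7, against 0.847 to 1.93 on the other 18 arrays. The same ratio of Gapdh was 2.17 to 19.9 on these 4 arrays and 0.0534 to 6.71 on the other 18, so it overlapped, with replicates 2 and 3 of 10-month SJL EOM highest among the 18 at 6.71 and 4.66. Members differed on these 4 arrays in both directions. Pygm was at 0.0187 to 0.369 times the mean of replicates 2 and 3 of its group and Gys1 at 0.301 to 0.585 times, whereas Ugp2 was at 2.02 to 3.42 times that mean. Most member results are therefore given with all 22 arrays and with the 18 arrays that remain without these 4. Values of other genes are from all 22 arrays unless the 18 are named. The ages also differed in overall scale, with array medians of 565.8 to 650.6 at 10 months and 423.1 to 561 at 12 months. Muscle was checked by its markers: 9 of 10 pan-muscle genes were on the array, and their summed intensity was at least 73730 on every array.

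The Phkg1 probe set read high in SJL muscle and low in Balb muscle, in leg and in EOM and at both ages. In SJL leg its intensity was 13724, 14297 and 15295 on the 12-month arrays and 5746, 9996 and 9262 on the 10-month arrays. In SJL EOM it was 6893 and 5400 at 12 months, and 2426, 5573 and 5904 at 10 months. The 10-month replicate 1 arrays gave the lowest reading in both of these muscles. In Balb leg the intensity was 151.5, 78.7 and 104.5 at 12 months, and 195, 335.6 and 309.4 at 10 months. In Balb EOM it was 123.6 and 60.5 at 12 months, and 298.5, 232.9 and 157.2 at 10 months. The highest Balb reading, 335.6, lay far below the lowest SJL reading, 2426, so the strains did not overlap in any muscle or age. All of these readings come from 1 probe set. Its probe sequences were not available, so whether a sequence difference between the strains affects the reading was not tested.

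**Figure D1:**
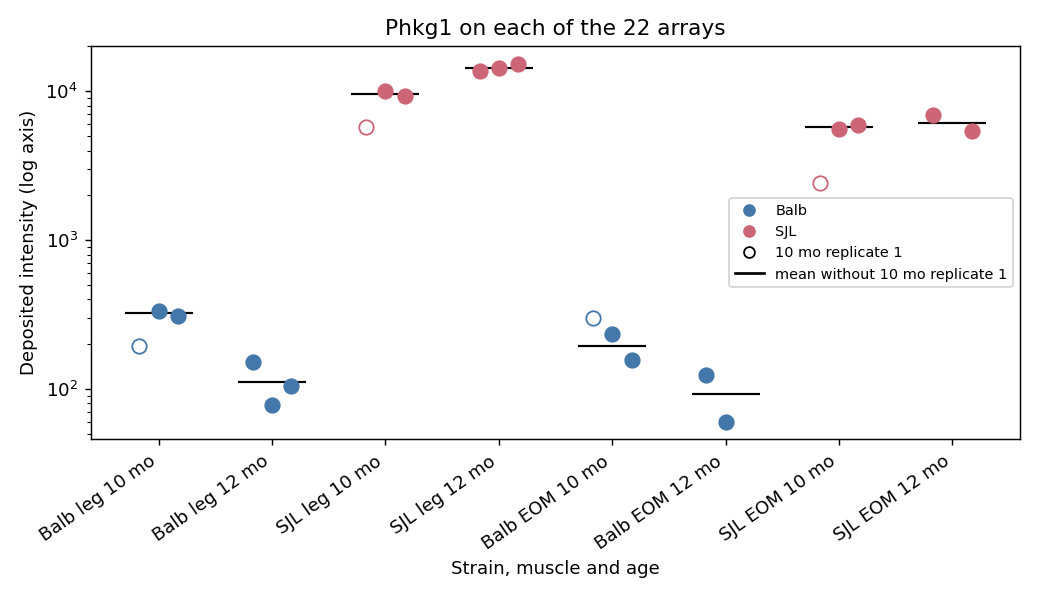
Deposited intensity of Phkg1 (log axis) on each of the 22 arrays, by strain, muscle and age. Points are arrays, open points are replicate 1 at 10 months and bars are means without them. All SJL points lie between 2426 and 15295, and all Balb points between 60.5 and 335.6.

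Ranked by mean, the groups ran SJL leg at 12 months (14440 ± 794.8, SD, n = 3), SJL leg at 10 months (8335), SJL EOM at 12 months (6147) and SJL EOM at 10 months (4634), followed by the 4 Balb groups from 280 down to 92.05. SJL leg at 12 months stood clear of the next group. The ranges of SJL leg at 10 months and SJL EOM at 12 months overlapped, as did those of SJL EOM at both ages. With the 18 arrays SJL leg at 10 months (9629) no longer overlapped with SJL EOM at 12 months. Among the Balb groups, 10-month leg overlapped with 10-month EOM and 12-month leg with 12-month EOM on 22 arrays.

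As a description without a test, the SJL minus Balb difference of Phkg1 on the log2(intensity + 16) scale was 5.84 (SE 0.26) in leg, or 57.2-fold, and 5.03 (SE 0.29) in EOM, or 32.8-fold. On the 18 arrays it was 5.85 in leg and 5.34 in EOM. Within ages it was 4.81 at 10 months and 6.86 at 12 months in leg, and 4.18 and 5.89 in EOM. The Balb readings were lower at 12 months, and so was the lower quartile of all probe sets, at 95.07 to 157.5 against 142.8 to 198.2 at 10 months, close to the Balb readings themselves. No detection call accompanies the values, so whether the Balb readings are above background is not known, and these folds are relative to the low reading of this probe set. The difference in leg exceeded that in EOM by 0.80 (SE 0.38) on 22 arrays and by 0.51 (SE 0.28) on 18, again untested.

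Markers of other cell types moved with strain in places. The summed intensity of the 8 slow-fibre markers on the array was 58890 to 109300 in Balb EOM and 102100 to 317900 in SJL EOM, overlapping, and 95560 to 109300 against 171900 to 317900 on the 18 arrays. In leg it overlapped as well (140700 to 302200 in Balb, 101500 to 450300 in SJL). That of the 12 macrophage and myeloid markers was 10120 to 21060 in Balb leg and 22010 to 40680 in SJL leg. That of the 13 orbital gland and epithelium markers was 29570 to 45820 in Balb EOM and 11430 to 19260 in SJL EOM. The part of these cells and fibres in the level of Phkg1 was not tested. In bulk tissue, fewer cells of a type and less RNA per cell cannot be told apart.

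The genes whose pattern over the 22 arrays was most like that of Phkg1, by Pearson r on the log2 scale, were Thumpd1 (r = 0.938), the MHC class I gene H2-K1 (0.923) and 1 probe set of Pdxdc1 (0.903). Next came the embryonic and atrial myosin light chain Myl4 (0.86) and 1 probe set of the slow troponin T gene Tnnt1 (0.849). The most opposite were Abcd3, a peroxisomal fatty acid transporter (r = -0.961), the other Pdxdc1 probe set (-0.96) and Gcsh, part of the glycine cleavage system (-0.935). These values describe arrays that share strain, muscle and age. The mean intensity of Thumpd1 was 682.8 in Balb leg and 2953 in SJL leg, and 758.7 and 3143 in EOM. Abcd3 ran the other way, from 8598 to 2422 in leg and from 10320 to 2934 in EOM. The 2 Pdxdc1 probe sets moved in opposite directions, 1 from 299.7 to 1657 and the other from 5392 to 174.9 in leg. For the Tnnt1 probe set named here the means were 5039 in Balb leg and 10280 in SJL leg, and 2638 and 9817 in EOM. A brighter Tnnt1 probe set, among the slow-fibre markers, had medians of 27250 in Balb leg and 22180 in SJL leg, but 23570 and 31000 in EOM. Over the 18 arrays, Thumpd1 stayed first (0.962) and Stbd1, which tethers glycogen to membranes, came next (0.93).

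Between the muscles, Phka1, the regulatory alpha subunit of the muscle enzyme, was far lower in EOM than in leg in both strains, and Phkg1 was lower in the EOM of SJL mice than in their leg muscle. In Balb leg Phka1 was at 2598, 6492 and 6592 at 10 months, and 8360, 9863 and 10285 at 12 months. In Balb EOM it was at 686, 1331 and 1093 at 10 months, and 1202 and 1044 at 12 months. Every EOM reading was below every leg reading of that strain and age. In SJL leg Phka1 was at 1491, 7597 and 7850 at 10 months and 7793, 6908 and 8272 at 12 months. In SJL EOM it was at 906.2, 962.7 and 1349 at 10 months and 831.5 and 1168 at 12 months, again with no overlap at either age. The 10-month replicate 1 arrays gave the lowest leg reading in both strains.

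By limma, the EOM minus leg difference of Phka1 was -2.65 in Balb (log2 scale, SE 0.36, 6.3-fold lower, adjusted p = 7.82e-05) and -2.50 in SJL (SE 0.36, 5.65-fold lower, adjusted p = 0.000181). It was -2.74 in Balb (SE 0.13, adjusted p = 1.85e-10) and -2.84 in SJL (SE 0.13, adjusted p = 1.32e-10) on the 18 arrays. The 10-month arrays alone, 4 of which are the replicate 1 arrays, gave -2.25 and -2.07 without passing (adjusted p = 0.142 and 0.19). At 12 months alone the differences were -3.06 and -2.93, and both passed. Ranked by mean, the 4 leg groups of Phka1, at 5227 to 9503, came before the 4 EOM groups, at 999.6 to 1123, and the EOM groups overlapped one another.

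Phkg1 fell in EOM relative to leg in SJL, by 1.07 on the log2 scale (SE 0.27, 2.11-fold, limma adjusted p = 0.0158). Without the replicate 1 arrays it fell by 0.99 (SE 0.20, adjusted p = 0.000866). At 12 months every SJL EOM reading was below every SJL leg reading, and at 10 months the ranges overlapped only through the replicate 1 leg array. The call was lost without replicate 3 of 12-month SJL EOM (-0.99, adjusted p = 0.0853) and with the 10-month arrays alone (-0.91, adjusted p = 0.484). In Balb the mean readings, 195.8 in leg and 174.5 in EOM, lie under the minimum of 240.8 for testing, which the probe set met only through its SJL readings, so no muscle test of Phkg1 is given there.

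Of the 8 member probe sets that met the minimum, 0 were higher and 1 was lower in EOM in Balb, where 13.7% of all 8695 probe sets passed, and 0 were higher and 2 lower in SJL, where 9.75% passed. The Balb counts include Phkg1, which did not pass there, with its readings under the minimum. The 18 arrays gave 2 higher and 2 lower in Balb (33.5% of all passed) and 1 higher and 3 lower in SJL (31.1%). The median difference of the members was -0.19 in Balb and -0.10 in SJL, against 0.11 and 0.04 for all probe sets tested. The calls added by the 18 arrays were Gbe1 and Gys1 higher and Gaa lower in Balb EOM, and Gbe1 higher and Pygm lower in SJL EOM. The Gys1 call was lost when the 18 arrays were also quantile normalized (0.15, limma adjusted p = 0.282) or median centred (0.13, adjusted p = 0.293).

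Gbe1, the branching enzyme, was the member most clearly higher in EOM. In SJL leg it was at 2886, 1488 and 960.2 at 10 months and 1838, 1681 and 1766 at 12 months. In SJL EOM it was at 1881, 2779 and 3100 at 10 months and 3801 and 2782 at 12 months. Apart from the 10-month replicate 1 arrays, every SJL EOM reading was above every SJL leg reading. The difference in SJL was 0.77 (SE 0.25, adjusted p = 0.0601) on 22 arrays and 1.08 (SE 0.15, 2.12-fold, limma adjusted p = 4.3e-05) on 18. In Balb it was 0.30 (adjusted p = 0.462) on 22 arrays and 0.44 (adjusted p = 0.0346) on 18, and that call was lost on leaving out any of 5 of the 9 arrays of those groups (adjusted p up to 0.144) and with quantile normalization (0.39, adjusted p = 0.0628) or median centring (0.27, adjusted p = 0.197).

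Pygm, the muscle phosphorylase, was among the brightest probe sets, with a mean intensity in the percentile 99.84 of the array. Its EOM minus leg difference in SJL was -0.85 (SE 0.96) on 22 arrays, which did not pass, and -0.49 (SE 0.13, adjusted p = 0.00974) on 18. In SJL EOM it was at 743.8 on the 10-month replicate 1 array and 38067 and 41705 on the other 2, against 7565, 91074 and 84277 in SJL leg. At 12 months the ranges overlapped, with 29777 and 34997 in SJL EOM and 22254, 32669 and 33125 in SJL leg. In Balb the 18-array difference was -0.03 (adjusted p = 0.896), the 10-month EOM readings being below those of leg and the 12-month ones above.

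Gaa was measured by 2 probe sets that did not behave alike. The bright one was lower in Balb EOM than in Balb leg by 0.56 on the 18 arrays (SE 0.15, adjusted p = 0.00743) and by 0.34 on 22 (adjusted p = 0.55). Its 12-month readings were 7411 and 7537 in Balb EOM and 10687, 11863 and 12091 in Balb leg, without overlap. The dim one, with a mean of 301.8, ran from 58.7 to 846.6 and its groups overlapped in both muscle comparisons and both ages. Phkb, the beta subunit, had a mean of 85.63, under the minimum of 240.8 for testing, so it is given as values only. It ranged from 30 to 166.3 over the 22 arrays, its strains overlapped in both muscles at both ages, and its group means were 82.77 to 128.1 at 10 months and 54.8 to 59.5 at 12 months.

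**Figure D2:**
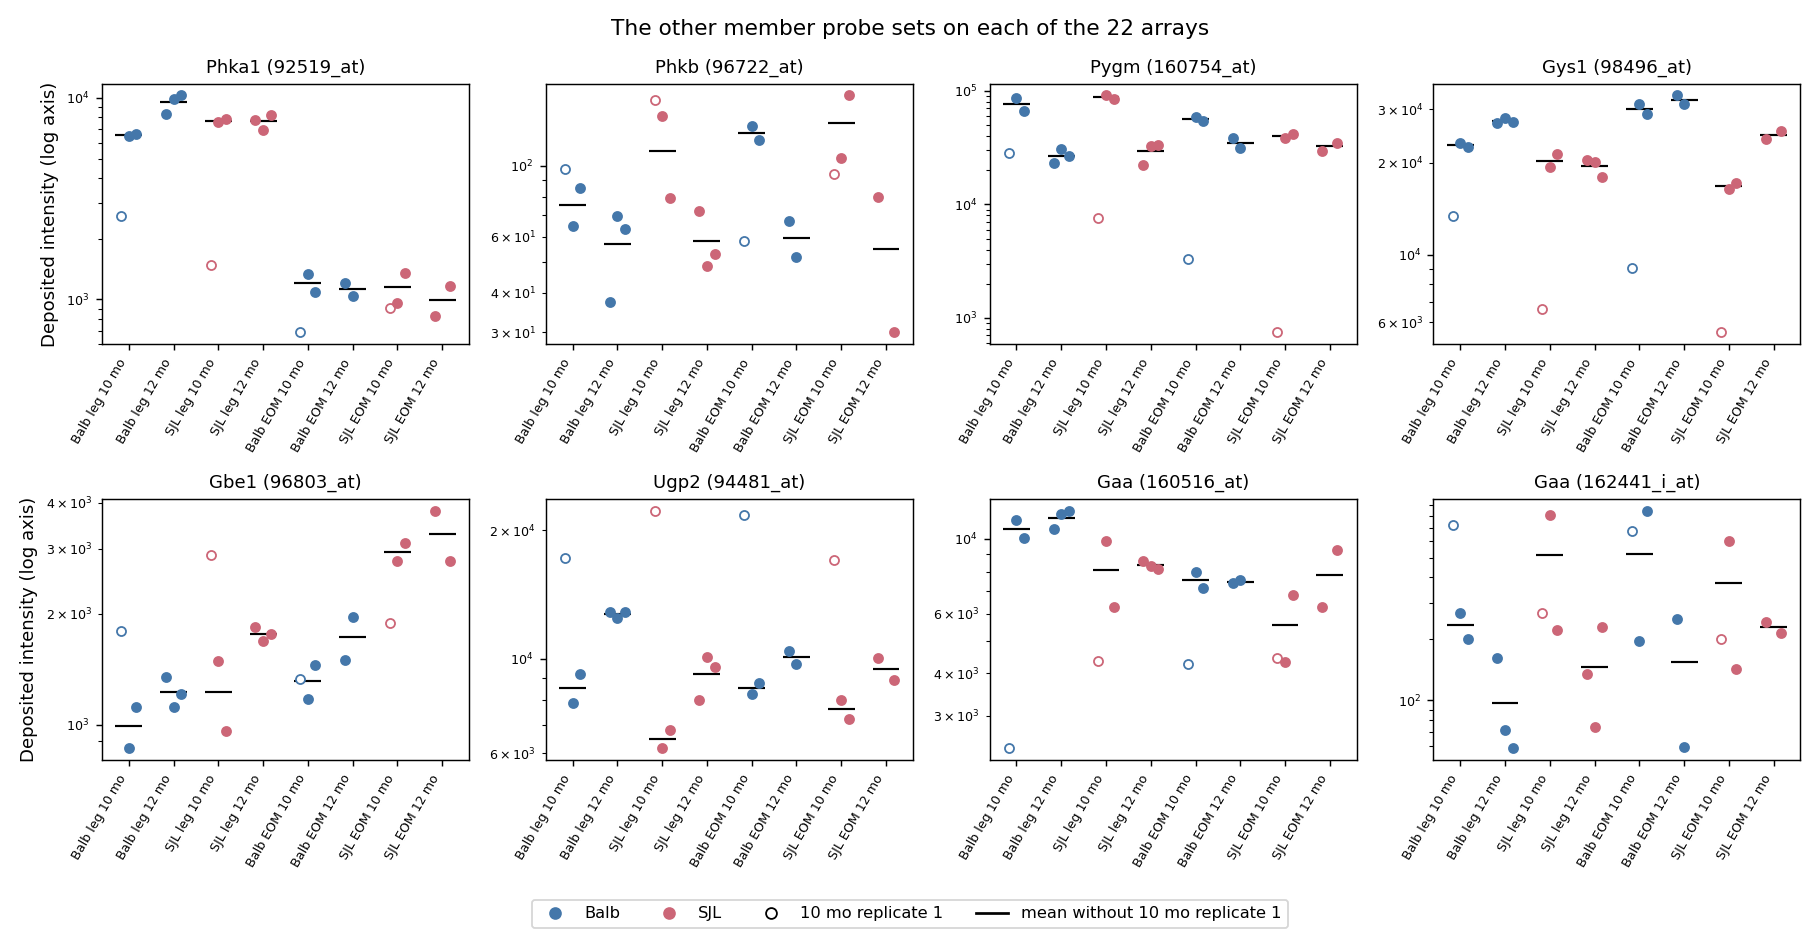
Deposited intensity (log axes, a scale for each panel) of the other 8 member probe sets on each of the 22 arrays, by strain, muscle and age; open points are replicate 1 at 10 months and bars are means without them. Phka1 is separated by muscle, and the open Pygm points lie far below the filled points of their groups.

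Of the 7 member probe sets tested other than that of Phkg1, none passed for strain in leg or EOM. Of all probe sets, 1.43% passed in leg and 1.05% in EOM. At an unadjusted p under 0.05 the counts were 0 in leg and 1 in EOM, against 711 and 724 of all 8695 probe sets. On the 18 arrays, 2 of the 7 were lower in SJL leg (8.27% of all passed), and 1 was higher and 1 lower in SJL EOM (8.45%). The median strain difference of the 7 was -0.21 in leg and -0.13 in EOM on 22 arrays, against -0.02 and -0.04 for all probe sets.

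Gys1, glycogen synthase, was lower in SJL in both muscles on the 18 arrays. At 12 months it was at 26966, 28124 and 27276 in Balb leg and 20524, 20082 and 18022 in SJL leg, and at 33302 and 31143 in Balb EOM and 24001 and 25454 in SJL EOM. At 10 months it was at 13447, 23297 and 22650 in Balb leg and 6622, 19351 and 21370 in SJL leg. In 10-month EOM it was at 9066, 31269 and 28895 in Balb and 5561, 16372 and 17192 in SJL. Without the replicate 1 arrays at 10 months, every SJL reading was below every Balb reading of that muscle and age. The difference was -0.33 in leg (SE 0.07, 1.26-fold, limma adjusted p = 0.00768) and -0.61 in EOM (SE 0.08, 1.53-fold, adjusted p = 0.000111). Both held when any 1 array of the groups compared was left out as well (adjusted p up to 0.0349 in leg and 0.00107 in EOM). On 22 arrays the differences were -0.47 (SE 0.35) and -0.59 (SE 0.39), with adjusted p of 0.859 and 0.816.

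Gbe1 was higher in SJL than in Balb EOM. In Balb EOM it was at 1333, 1173 and 1447 at 10 months and 1499 and 1953 at 12 months, every reading below every SJL EOM reading of that age. The difference was 0.93 (SE 0.26, 1.9-fold, limma adjusted p = 0.134) on 22 arrays and 1.04 (SE 0.16, 2.06-fold, adjusted p = 0.000552) on 18. In leg it was 0.47 (adjusted p = 0.647) on 22 arrays and 0.40 (adjusted p = 0.114) on 18. The 12-month Balb leg readings, 1347, 1114 and 1208, were all below the 12-month SJL leg readings given above, and at 10 months the strains overlapped.

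Ugp2, which makes UDP-glucose, was lower in SJL leg on the 18 arrays, by 0.43 (SE 0.08, 1.35-fold, limma adjusted p = 0.0036). At 12 months it was at 12887, 12423 and 12862 in Balb leg and 8003, 10075 and 9583 in SJL leg. At 10 months it was at 17240, 7873 and 9229 in Balb leg and 22194, 6184 and 6801 in SJL leg, where the replicate 1 arrays, listed first, read highest in both strains. On 22 arrays the difference was -0.31 (SE 0.32, adjusted p = 0.933). For Phka1 the strain difference was -0.21 in leg (95% interval -0.93 to 0.51) and -0.05 in EOM (-0.86 to 0.76) on 22 arrays. The 18-array intervals were -0.29 to 0.22 and -0.41 to 0.15. That in leg averages over ages that went opposite ways on the 18 arrays. Phka1 in SJL leg was above Balb leg at 10 months (7597 and 7850 against 6492 and 6592). At 12 months it was below (6908 to 8272 against 8360 to 10285). For Pygm the 22-array intervals were wide, -2.11 to 1.72 in leg and -2.71 to 1.56 in EOM, and the 18-array ones were -0.11 to 0.42 and -0.60 to -0.01, without passing (adjusted p = 0.543 and 0.205).

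**Figure D3:**
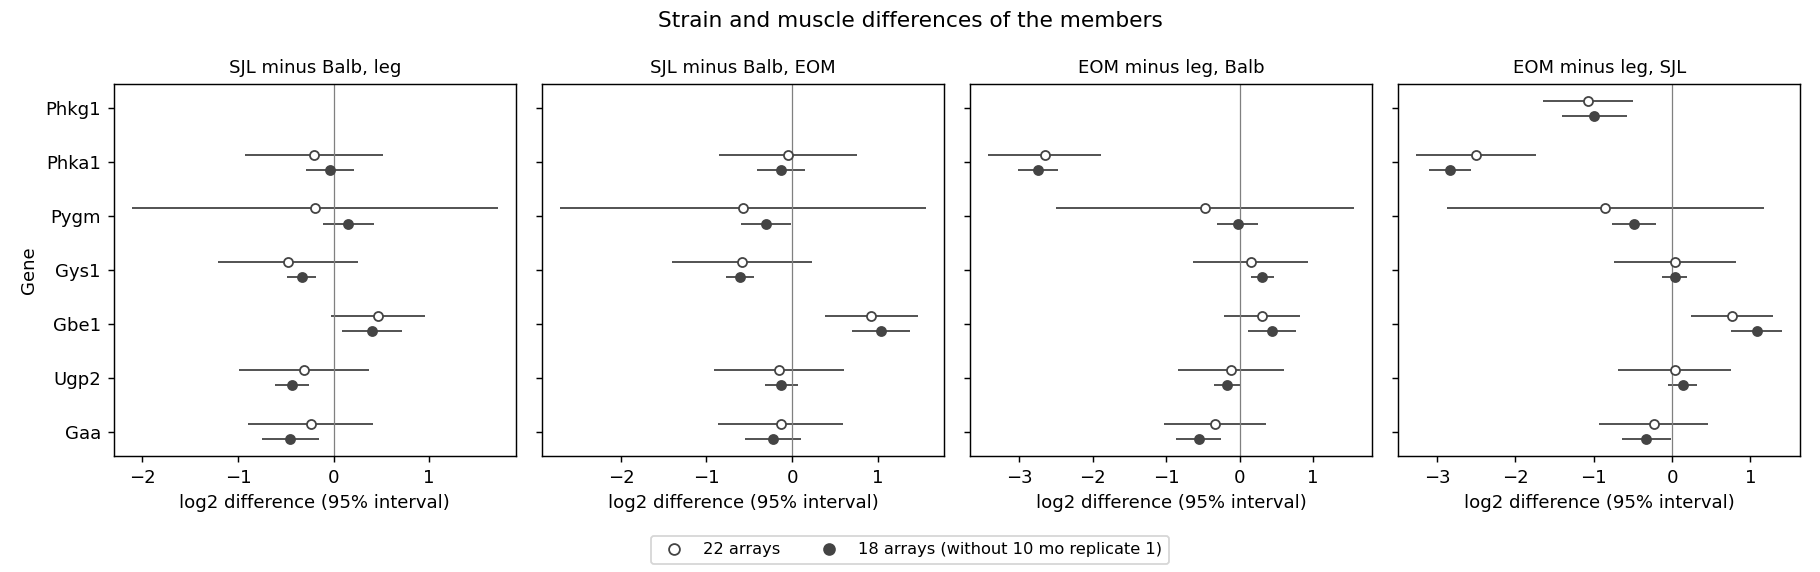
Log2 differences with 95% intervals from limma, for strain in leg and EOM (SJL minus Balb) and for muscle in Balb and SJL (EOM minus leg); open points use 22 arrays and filled points the 18 arrays without replicate 1 at 10 months, and each panel has its own scale. The strain differences of Phkg1 and its muscle difference in Balb are left out, Gaa is its brighter probe set, and the Phka1 muscle differences lie between -2.84 and -2.50.

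Whether a strain difference depended on the muscle was tested for the 7 other probe sets. None passed on 22 arrays, where 0.092% of all probe sets passed, or on 18 arrays, where 1.81% passed. On 22 arrays no member had an unadjusted p under 0.05, against 406 of all 8695 probe sets. On 18 arrays 4 members did, against 1251 of all. The strain difference in leg minus that in EOM was -0.64 for Gbe1 (SE 0.22, limma adjusted p = 0.174), 0.28 for Gys1 (SE 0.11, adjusted p = 0.235), 0.46 for Pygm (SE 0.19, adjusted p = 0.269) and -0.31 for Ugp2 (SE 0.12, adjusted p = 0.264) on 18 arrays. The strain differences of Gbe1 in EOM and of Ugp2 in leg are thus not shown to differ from those in the other muscle.

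Between 10 and 12 months, Pygm fell in leg once the replicate 1 arrays were left out. Balb leg read 87223 and 67018 at 10 months on those arrays (28435 on replicate 1) and 23257, 30443 and 26865 at 12 months. SJL leg showed the same separation, with the values given above. The change was -1.56 on the 18 arrays (SE 0.13, 2.95-fold lower, limma adjusted p = 1.14e-07) and -0.73 (SE 0.91, adjusted p = 0.548) on 22. In EOM it was -0.51 (SE 0.14, adjusted p = 0.00774) on 18 arrays but 1.13 (SE 1.02, adjusted p = 0.423) on 22, the sign turning with the replicate 1 arrays. That EOM call was lost when the 18 arrays were also quantile normalized (-0.04, adjusted p = 0.829) or median centred (-0.22, adjusted p = 0.213). The top intensity of an array lay at 88350 to 122300 on the 10-month arrays other than replicate 1 and 33370 to 61880 at 12 months. Age and the overall scale of the arrays cannot be told apart, and quantile normalization of the 18 arrays brought the Pygm change in leg to -0.53 (adjusted p = 0.00102).

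For Phkg1 the age values are a description, since an average over strains would mix bright SJL readings with Balb readings under the minimum. Its mean in SJL leg was 8335 at 10 months and 14440 at 12 months, and in SJL EOM 4634 and 6147. In Balb leg it was 280 and 111.6. Of the 8 member probe sets, Phkg1 included through its SJL readings, 1 was lower with age in leg, the dim Gaa probe set. In leg 39% of all probe sets passed. None of the 8 passed in EOM, where 27.9% of all did. At an unadjusted p under 0.05, 1 member was counted in EOM, against 3496 of all 8695 probe sets. With the 18 arrays, 2 rose and 2 fell in leg (61.9% of all passed), and 2 rose and 1 fell in EOM (42.8%).

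The 18-array rises were those of Ugp2 in leg (0.54, limma adjusted p = 5.13e-05) and EOM (0.28, adjusted p = 0.0223), Gbe1 in leg (0.43, adjusted p = 0.0182) and Gys1 in EOM (0.33, adjusted p = 0.00335). The Ugp2 call in EOM was lost on leaving out any of 4 of the 8 arrays (adjusted p up to 0.0826) and with quantile normalization of the 18 (0.14, adjusted p = 0.251). The Gbe1 call in leg was lost without replicate 2 of 10-month Balb leg or replicate 3 of 10-month SJL leg (down to 0.27, adjusted p up to 0.121). On 22 arrays the change of Ugp2 in EOM was -0.14 (adjusted p = 0.791), of opposite sign. Median centring of each array moved the median of all probe sets from -0.10 to 0.33 in leg and from -0.11 to 0.17 in EOM, so a direction with age is relative to the scaling. The dim Gaa probe set fell in leg by 1.56 (SE 0.50, adjusted p = 0.0201) on 22 arrays and by 1.40 (adjusted p = 0.0386) on 18. On 22 arrays it lost the call with quantile normalization (-1.03, adjusted p = 0.131) or median centring (-1.13, adjusted p = 0.0654). It also lost it without replicate 2 of 12-month SJL leg, replicate 1 of 10-month Balb leg or replicate 2 of 10-month SJL leg (adjusted p up to 0.0604). The 18-array call held in 3 of 10 fits that left out 1 more array (adjusted p up to 0.201). That call was also lost with quantile normalization (-0.82, adjusted p = 0.221) or median centring (-0.95, adjusted p = 0.131) of the 18. The values of this Gaa probe set lie where the whole low end of the arrays shifted with age.

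Of 5 further subunit genes of phosphorylase kinase (the liver-type subunits Phka2 and Phkg2 and the calmodulins), 3 were tested, and none passed for strain or muscle on 22 arrays. Of all probe sets, 1.43% and 1.05% passed there for strain in leg and EOM, and 13.7% and 9.75% for muscle in Balb and SJL. Calm2 was lower with age in leg (-1.56, limma adjusted p = 0.000701) and EOM (-1.72, adjusted p = 0.00149). With the 18 arrays, Phkg2 was higher in Balb EOM than in Balb leg by 0.51 (adjusted p = 0.0394), where 33.5% of all probe sets passed.

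Of 40 other genes of glycogen turnover and its control, 23 were tested. For strain none passed on 22 arrays in leg or EOM. At an unadjusted p under 0.05 the counts were 0 and 1, against 711 and 724 of all 8695 probe sets. With the 18 arrays 1 was higher and 4 lower in SJL leg, where 8.27% of all probe sets passed, and 1 higher and 1 lower in SJL EOM, where 8.45% passed. The glucose transporter Slc2a4 was lower in SJL in both muscles (-0.58 in leg, limma adjusted p = 0.000517, and -0.48 in EOM, adjusted p = 0.00658) and Stbd1 was higher in both (0.33, adjusted p = 0.0111, and 0.44, adjusted p = 0.00275). On 22 arrays the Slc2a4 differences were -0.80 and -0.50, and those of Stbd1 0.20 and 0.32, without passing.

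Between the muscles, 1 gene of that list was higher and 3 were lower in Balb EOM (13.7% of all probe sets passed), and 1 higher and 4 lower in SJL EOM (9.75%), with a list median of -0.39 and -0.20 against 0.11 and 0.04 for all probe sets. These counts were 1 and 10 in Balb and 4 and 9 in SJL on the 18 arrays, where 33.5% and 31.1% of all probe sets passed. Ppp1r3c, which targets protein phosphatase 1 to glycogen, was lower in EOM, with a difference of -2.69 in Balb (limma adjusted p = 0.00653) and -2.78 in SJL (adjusted p = 0.00663), with means of 7347 and 5998 in leg and 1042 and 837.5 in EOM. Slc37a4, the glucose-6-phosphate transporter of the endoplasmic reticulum, was lower too, at -2.51 (adjusted p = 4.77e-07) and -2.29 (adjusted p = 1.81e-06). Protein kinase A lies upstream of phosphorylase kinase. Its regulatory subunit Prkar1a was higher in EOM by 0.97 in Balb (adjusted p = 0.00152) and 0.85 in SJL (adjusted p = 0.0058). Another, Prkar2a, was lower in Balb EOM (-2.13, adjusted p = 0.0022). The Prkar2a mean in Balb EOM, 239.9, lies under the minimum of 240.8 for testing, which the probe set met through other groups. Its Balb leg readings, 174.8 to 2632.2, overlapped those of Balb EOM, 102.3 to 483.5. Ppp1r1a, an inhibitor of protein phosphatase 1, was lower in SJL EOM (-1.25, adjusted p = 0.0125).

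Glycolysis takes up the glucose released from glycogen. Its list of 21 genes also held genes of linked steps, such as Fbp2, Gpd1 and Pdk4, and 17 of the 21 were tested. None passed for strain on 22 arrays. At an unadjusted p under 0.05 the counts were 0 in leg and 1 in EOM, against 711 and 724 of all 8695 probe sets. With the 18 arrays 1 was lower in SJL leg (8.27% of all passed), and 1 was higher and 1 lower in SJL EOM (8.45%). In EOM 3 were higher and 4 lower than leg in Balb, and 3 higher and 2 lower in SJL, where 13.7% and 9.75% of all probe sets passed. The 18 arrays gave 6 and 4, and 6 and 6, against 33.5% and 31.1% of all. Fbp2, the muscle fructose bisphosphatase, was lower in EOM in Balb (-1.67, limma adjusted p = 0.000981) and SJL (-2.12, adjusted p = 0.000143), and Gpd1, the glycerol phosphate dehydrogenase, was lower in Balb (-2.03, adjusted p = 0.0267). Pgam1 was higher in both (0.92, adjusted p = 0.0233, and 1.07, adjusted p = 0.0113). Eno3 was higher in Balb (2.21, adjusted p = 0.0281) and Pfkp in SJL (1.81, adjusted p = 0.00767). Over both ages, the Eno3 readings in Balb leg, 1785.9 to 78323.4, spanned those in Balb EOM, 23552.6 to 74457.9. Eno3 also fell with age in leg (-3.33, limma adjusted p = 0.00029). The Pfkp mean in SJL leg, 215.9, lies under the minimum of 240.8 for testing, which the probe set met through EOM.

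With age on 22 arrays, the glycogen list had 3 genes higher and 2 lower in leg and 1 and 1 in EOM, and the glycolysis list 2 higher and 3 lower in leg and 1 and 0 in EOM, where 39% and 27.9% of all probe sets passed. Pygb, the brain-type phosphorylase, rose in both muscles (1.35 in leg, limma adjusted p = 0.00779, and 1.25 in EOM, adjusted p = 0.0315). The Pygb readings were dim, with means of 225.1 to 332.3 over strains and muscles, near the minimum of 240.8 for testing. G6pc, glucose-6-phosphatase, fell in both muscles (-2.60, adjusted p = 3.28e-07, and -1.88, adjusted p = 5.79e-05). On the 18 arrays 11 of the 17 tested genes of the glycolysis list were lower at 12 months in leg and 3 higher. Of all 8695 probe sets 61.9% passed there, 3003 lower and 2381 higher. Pfkm, Tpi1 and Pgam2 were among the 11, at -0.95, -1.51 and -1.39 on the log2 scale. They are also among the 5 genes whose 18-array pattern was most like that of Pygm (r = 0.968, 0.969 and 0.946). On 22 arrays the genes most like Pygm were Pde4dip, Ak1, Babam1, Anapc5 and Pfkm (r of 0.955 to 0.977), over arrays that share the low replicate 1 readings.

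**Figure D4:**
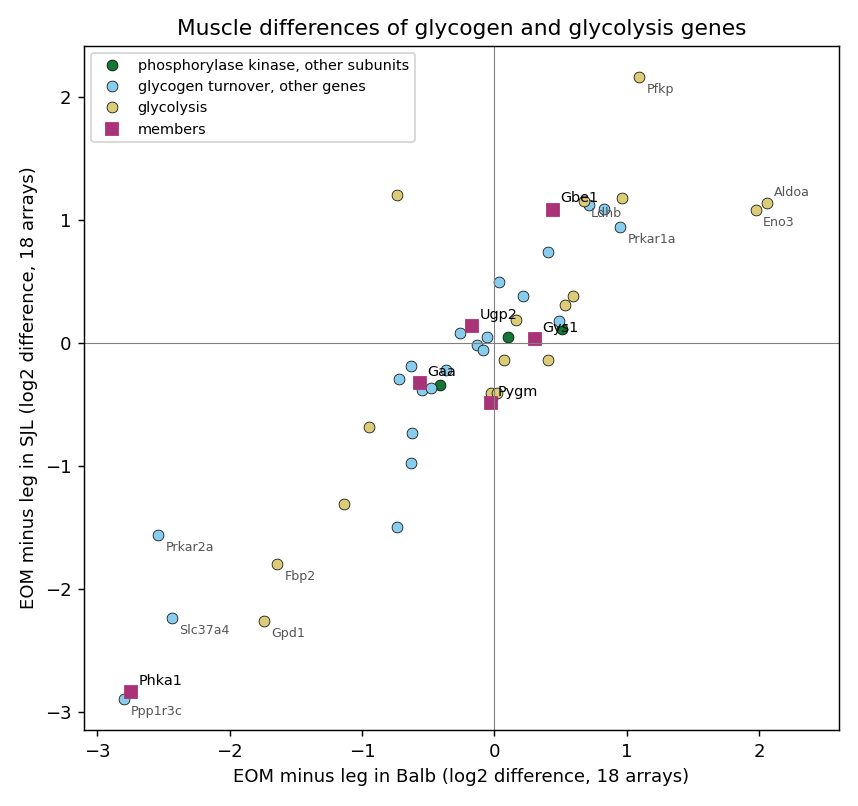
EOM minus leg log2 difference in Balb (horizontal) and SJL (vertical) on the 18 arrays, for the members (squares) and the genes of 3 pathway lists (circles); Gaa is its brighter probe set and Phkg1 is left out, its Balb readings being under the minimum. Phka1 at -2.74 and -2.84 lies next to Ppp1r3c at the lower left, and Gbe1 at 0.44 and 1.08 is the member farthest to the upper right.

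Tissue other than muscle differed between leg and EOM beside these muscle differences. The summed intensity of 5 nerve and Schwann cell markers was 4500 to 7711 in leg and 14230 to 21950 in EOM, and that of 6 adipocyte markers was 12120 to 30290 in leg and 24660 to 55770 in EOM. The pan-muscle sums overlapped, at 75730 to 392200 in leg and 73730 to 284500 in EOM, as did those of the 4 blood markers, at 19350 to 54380 and 25350 to 95630, and of the 12 fast-fibre markers, at 115700 to 641400 and 137600 to 486400. The 13 orbital gland and epithelium markers summed to 2886 to 10430 in Balb leg and 29570 to 45820 in Balb EOM. In SJL these sums overlapped, at 3661 to 12990 in leg and 11430 to 19260 in EOM. The 8 slow-fibre markers summed to 140700 to 302200 in Balb leg and 58890 to 109300 in Balb EOM. In SJL they overlapped, at 101500 to 450300 and 102100 to 317900. Macrophage and myeloid sums overlapped in both strains on all arrays. On the 18 arrays they were separate, in opposite directions. In Balb they were then 10120 to 14330 in leg and 18930 to 25350 in EOM. In SJL they were 22010 to 26390 in leg and 17100 to 21900 in EOM. The part of these tissues and fibre types in the muscle differences was not tested.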

How the data were processed

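Total RNA of leg muscle and EOM was hybridised to 22 Affymetrix arrays in 8 groups taken from the labels. Per the labels, the standard Affymetrix protocol was followed. The deposited values are linear intensities made by the authors, 1 per probe set and array; which software, background correction and summarization gave them is not given in the sources used here, and no detection calls came with them. The trimmed mean was 1501 on every array, so each had been scaled to a common target, and no further normalization was applied. Of 12422 probe sets other than 66 controls, 10833 carried 1 gene symbol, 396 several and 1193 none in the platform annotation. The gene IDs of 10817 were found in the RefSeq table of GRCm38.p6, used for names.

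Values were taken as log2(intensity + 16), so folds of dim probe sets are understated. Probe sets in the lowest 30% by mean intensity (under 240.8) were left out and 8695 tested. With limma 3.58.1 (R 4.3.3), a mean per group and an intensity trend in the variances were estimated from the 22 arrays together. Strain and muscle differences weight both ages equally, and age differences both strains. Tests were two-sided, adjusted by Benjamini-Hochberg over all probe sets tested, with a threshold of 0.05, and were tested on simulated data. The alternatives were the pseudocount, the filter, the scaling, the variance trend, a replicate block, the samples fitted, single ages and left-out arrays. The members and lists were chosen with earlier results of these data known. Pathway genes named are up to 4 per list and comparison with the smallest adjusted p on 22 arrays. Genes named from the 18 arrays alone (Slc2a4, Stbd1, Phkg2, Tpi1, Pgam2), and Pfkm with its age change, were chosen after their values were seen. Genes like Phkg1 or Pygm are the 5 with the highest r, and the 3 with the lowest for Phkg1. Figures were drawn with matplotlib.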

Additional observations from a re-analysis of the deposited data

How the results depend on the processing

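Of 1392 member values under other settings, 1197 kept their direction and side of the threshold, or for untested values moved by less than the spread; 70 came to pass, 11 ceased to, 111 moved, and 3 took the opposite sign and passed. Values that did not pass could also change sign, as for Pygm between strains in EOM (-0.57 on 22 arrays, 0.38 without replicate 1 of 10-month SJL EOM). The members passing were recounted under each setting. For strain in leg (0 of 7) the count was 1 with the replicate block, 2 with the 18 arrays, 2 with 12-month arrays only, 2 with the 18 arrays and quantile normalization and 3 with the 18 arrays and median centring. For strain in EOM (0 of 7) it was 2, 1, 2 and 2 with the last 4 of these. For muscle in Balb (1 of 8) it was 4 with the 18 arrays, 0 with 10-month arrays only, 2 with 12-month arrays only, 3 with the 18 arrays and quantile normalization and 4 with median centring; for muscle in SJL (2 of 8) these were 4, 0, 4, 4 and 5, 3 with the replicate block, and 1 to 3 on leaving out 1 array. The 2 scaled Balb counts include the dim Phkg1. For age in leg (1 of 8) it was 2 with a pseudocount of 64, 3 with median centring, 0 with quantile normalization, 4 with the replicate block, 4 with the 18 arrays, 4 and 6 with the 18 arrays and quantile normalization or median centring, and 0 to 2 on leaving out 1 array. For age in EOM (0 of 8) it was 1 with median centring, 2 with the replicate block, 3 with the 18 arrays, and 1 and 4 with their quantile normalization or median centring. The strain difference between muscles stayed at 0 under every setting run; fitting only the groups compared is there the same fit. On the 18 arrays with quantile normalization or median centring, 685 and 621 of all 8695 probe sets passed for strain in leg. For strain in EOM 760 and 727 passed. For muscle 2896 and 2924 passed in Balb, and 2736 and 2654 in SJL. For age 5119 and 5789 passed in leg, and 3657 and 4374 in EOM. For the strain difference between muscles 168 and 149 passed. The settings that pair the 18 arrays with another scaling or with a further left-out array were chosen after seeing the data.

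The 3 values that passed with the opposite sign were the age changes in EOM of Pygm (1.13 on 22 arrays, -0.51 on 18) and of Ugp2 (-0.14 on 22, 0.28 on 18, and 0.57 on 18 with median centring). The cause of these shifts was not tested. Deviations from the group mean of same-numbered arrays correlated at 0.293 to 0.759 over 12 pairs at 10 months and at -0.078 to 0.02 over 8 pairs at 12 months. The labels name no shared source and not every pair was over 0.1, so the numbers were not taken as pairs, although those at 10 months deviated together. The replicate block raised the calls over all probe sets from 124 to 340 for strain in leg, 91 to 220 for strain in EOM, 8 to 35 for the difference between muscles, 1195 to 2264 and 848 to 1806 for muscle in Balb and SJL, and 3389 to 4742 and 2425 to 3939 for age. The other counts over all probe sets that moved by more than 1.5 times, beside those of the 18 arrays, were with 10-month arrays only 8, 3, 0, 83 and 64 in the first 5 of these comparisons, and with 12-month arrays only 521, 267, 65, 2458 and 1964. Without the intensity trend the difference between muscles had 13. With only the groups compared, strain in EOM had 38 and muscle in SJL 497. Without 1 array, strain in EOM ranged from 53 to 112, the difference between muscles from 1 to 14, muscle in Balb from 689 to 1226, muscle in SJL from 493 to 1289 and age in EOM from 1466 to 2477. Median centring turned the split of higher to lower calls from 771 and 424 to 438 and 700 for muscle in Balb, from 546 and 302 to 416 and 384 in SJL, from 35 and 56 to 42 and 42 for strain in EOM, from 1004 and 2385 to 2635 and 1539 for age in leg, and from 692 and 1733 to 1585 and 1126 in EOM.

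The calls for Phka1 in both strains and for Phkg1, Gbe1 and Pygm in SJL between muscles, and for Gys1, Ugp2 and Gbe1 between strains, held on the 18 arrays on leaving out each array of their groups. Balb readings of Phkg1 and all Phkb readings are dim, and without detection calls their signal over background is not known.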

Other observations

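The tested genes nearest to Phkg1 on chromosome 5, 5 on each side in the RefSeq order, were looked at after the values of Phkg1 were seen. In leg their SJL minus Balb differences ran from -1.09 to 0.21 on the log2 scale on 22 arrays, and 1 of the 10 passed, against 1.43% of all probe sets. This was Nipsnap2, which was lower in SJL leg (-1.09, SE 0.23, limma adjusted p = 0.0161) and, without passing, in SJL EOM (-0.91, SE 0.25, adjusted p = 0.131). With the 18 arrays Nipsnap2 was lower in both muscles (-1.24, adjusted p = 9.6e-07, and -1.10, adjusted p = 1.41e-05), and Mrps17 (-0.30, adjusted p = 0.0304) and Psph (-0.40, adjusted p = 0.0331) were also lower in leg. Of all probe sets, 8.27% passed in leg and 8.45% in EOM on the 18 arrays. There the differences of the 10 genes ran from -1.24 to 0.29 in leg and from -1.10 to 0.38 in EOM. Their bearing on that of Phkg1 was not tested.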
